A study of Drosophila melanogaster with 4 samples.

Results

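The peaks described here are the 1531 reproducible Doublesex-eGFP summits on the X chromosome, chosen by chromosome alone from a list of 9154 reproducible summits, with the other 7623 as their comparison. They lay in 1476 peak intervals, and 7594 of the others were on the arms 2L, 2R, 3L and 3R. Binding was mapped by ChIP-seq, the sequencing of DNA recovered with a protein by immunoprecipitation, in whole Drosophila melanogaster prepupae labelled 24 h old, with males and females pooled. All 4 samples, labelled biological replicates 1 to 4 of 1 group, came from a transgenic line that stably expressed Doublesex with a green fluorescent protein (GFP) fused to its C terminus, and an antibody against GFP was used. The labels do not say whether the tagged copy adds to or replaces the native gene, nor which isoforms carry the tag. Each replicate had a list of 30000 summits with the authors' signal score, which ranks summits within a list. Read depth was unknown, because the lists hold no read counts, and whole animals mix all tissues, so a summit cannot be assigned to a cell type or a sex.

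The transcription factor Doublesex acts last in the fly sex determination pathway, with male and female isoforms that share a DNA-binding domain and differ at the C terminus. The X chromosome carries the start of that pathway, where its dose sets the state of Sex-lethal, and it carries yolk protein genes that are classical targets of Doublesex in the adult female fat body. In males the single X is transcribed more strongly by the dosage compensation complex, which holds the MOF acetyltransferase and the noncoding roX RNAs and recognises GA-rich sequence elements. Since males carry a single X and females a pair, pooled animals hold fewer copies of X than of an autosome, and copy number and binding per copy cannot be told apart in any comparison of signal or density with the rest of the genome.

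The sequences at the 8 strongest X summits are shown because they are the peaks on which the ranking results turn, and because most of them lack the Doublesex core. Each line gives the plus strand of dm6 from the RefSeq copy of the assembly, 50 bases on each side of the summit, with ACAATGT or ACAAAGT on either strand in capitals. ACAATGT is the core that Doublesex is known to bind and ACAAAGT is a variant of it. Bases within an untranslated region were left out at Ugalt, and the CG46311 site has 10 bases on each side.
Ptp10D intron (chrX:11622951-11623051): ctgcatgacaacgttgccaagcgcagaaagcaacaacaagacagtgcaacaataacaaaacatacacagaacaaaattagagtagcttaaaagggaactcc
Ugalt promoter (chrX:2703853-2703942): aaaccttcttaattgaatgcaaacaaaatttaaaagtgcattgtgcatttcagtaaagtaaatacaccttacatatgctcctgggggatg
CG4004, in lncRNA:Vinr (chrX:12751296-12751396): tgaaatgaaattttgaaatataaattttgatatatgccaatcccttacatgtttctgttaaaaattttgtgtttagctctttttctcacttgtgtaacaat
CG32772 intron (chrX:4910341-4910441): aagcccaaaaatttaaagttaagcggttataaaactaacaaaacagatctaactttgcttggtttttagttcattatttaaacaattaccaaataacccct
chas promoter (chrX:17683182-17683282): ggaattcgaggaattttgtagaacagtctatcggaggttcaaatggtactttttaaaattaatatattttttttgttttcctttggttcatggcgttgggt
CG46311 and Tpst, 27 bases (chrX:13564087-13564113): gcaacgtgcaACATTGTgtgcgagcgt
Gapdh2 promoter (chrX:15867924-15868024): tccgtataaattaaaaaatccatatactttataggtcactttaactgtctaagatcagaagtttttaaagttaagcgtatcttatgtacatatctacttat
CHES-1-like intron (chrX:7705833-7705933): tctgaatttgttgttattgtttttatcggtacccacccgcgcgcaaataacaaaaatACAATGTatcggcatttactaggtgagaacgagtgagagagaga
Of these 8 windows, those at CG46311 and CHES-1-like held the core, and the other 6 held neither sequence.

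X-linked summits were under-represented among the strongest peaks. X makes up 17.6% of the length of the 6 chromosome arms and carries 15.7% of their protein-coding genes. It held 9.25% ± 0.50 (SD, n = 4 replicates) of the strongest 100 summits. The values for the strongest 100 were 9%, 10%, 9% and 9% in replicates 1 to 4. For the strongest 500 the shares were 13.0%, 13.6%, 10.6% and 12.4% in replicates 1 to 4, with a mean of 12.4% ± 1.30 (SD). Over all 30000 summits of a list they were 17.7%, 18.2%, 17.1% and 17.3%, with a mean of 17.6% ± 0.473. Every replicate had a lower X share at the top of its list than over the whole list. The share in the strongest 500 minus that in all 30000 averaged −5.19 percentage points (SD 0.896, lower in 4 of 4 replicates, exact two-sided sign-flip permutation test, p = 0.125). This is the smallest p that 4 replicates can give, so no such test could pass 0.05, and the p-values measure only the spread between these samples. Adjusted over 12 measures compared with the same exact test, it was 0.167, and it was also 0.167 for each of the other measures with p = 0.125.

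**Figure D1:**
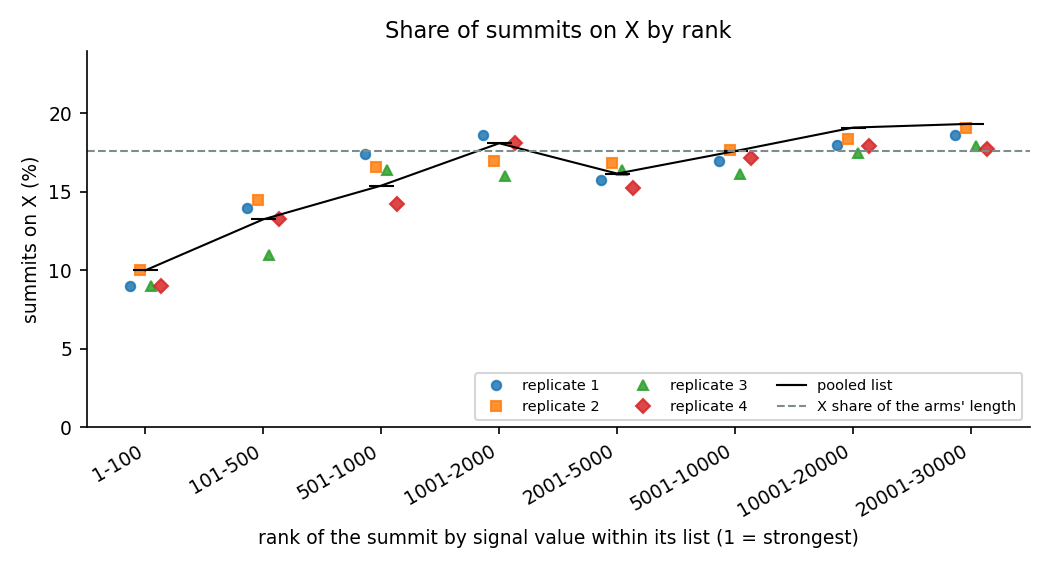
Share of summits on X (y axis, %) in 8 classes of rank by signal value (x axis, rank 1 the strongest) for the pooled list (line) and the 4 replicates (symbols), with the X share of the arms' length as a dashed line. All replicates lie at 9% or 10% in the first class and between 15.3% and 19.1% beyond rank 1000, on both sides of the dashed line at 17.6%.

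In the reproducible list the same difference was small over most of the range. X held 15.6% of the strongest quintile (286 of 1830, 95% interval 14.0 to 17.4, exact binomial, counting error over peaks only) and 17.3% of the weakest quintile (318 of 1834, 15.6 to 19.2). The median signal was 452 on X and 466 off X, the 95th percentiles were 1787 and 2076, and the highest values were 8408 and 68022. The medians were thus close and the upper tails apart. In the strongest 10000 summits of each replicate the median signal on X was 0.973 ± 0.0159 (SD, n = 4) of that off X, lower in 4 of 4 replicates (exact sign-flip permutation test, p = 0.125). All 1531 summits shared the ceiling of the −log10 q-value, which therefore gave no ranking.

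The strongest X summit lay in an intron of Ptp10D, a receptor tyrosine phosphatase gene, 986 bp downstream of its start (X 11623001, signal 8408). It ranked 23 among all reproducible summits, and 21, 18, 23 and 25 in replicates 1 to 4. Second was a summit 40 bp upstream of Ugalt, which encodes a Golgi transporter of UDP-galactose (X 2703892, signal 7817), ranking 25 overall and 19, 16, 27 and 36 in the replicates. These 2 summits led X in each replicate's own ranking of the 25 summits described here. Next was a summit in the noncoding gene lncRNA:Vinr, 5029 bp downstream of the start of CG4004 (signal 6359), with ranks of 90, 41, 40 and 52. A further summit near CG4004, in lncRNA:CR44619, had a signal of 4344. CG32772 had an intronic summit (6213) and chas one 310 bp upstream of a start (6003). CG46311 had a promoter summit that also lay within Tpst, a tyrosylprotein sulfotransferase gene (5340, with the core). At Gapdh2, which encodes a glycolytic enzyme, the summit was 171 bp upstream of the start (5200) and ranked 47, 34, 87 and 148. CHES-1-like, a forkhead transcription factor gene, had a pair of intronic summits, with signals of 4616 with the core and 3991 without it.

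Among the remaining of the 25 strongest, genes of several functions were present. A summit with the core and a signal of 4522 lay in an intron of gce, a juvenile hormone receptor gene, although the nearest start, 7316 bp away, was that of the topoisomerase gene Top1. At the Polycomb group gene ph-p the summit was 454 bp upstream of a start (4029), and at CG12206 it was 2 bp upstream (3933). The cell polarity gene baz had one in a 5′ untranslated region (3741, with the core). Next came Act5C, a cytoplasmic actin gene whose start was 4702 bp away (3627), CG3726 (3424), the adaptor gene Dok (3223), the integrin gene mew (3120) and the proline dehydrogenase gene slgA (2986). Mnt, whose product opposes Myc, had an intronic summit with the core (2982), and it had the widest span of ranks among these, at 524, 357, 197 and 109 in replicates 1 to 4. CG4586 (2972), CG43658 (2915), the kinase gene Raf (2856), the lysosome positioning gene BORCS5 (2806) and pdgy, an acyl-CoA synthetase gene (2663), completed the 25. All 25 were present in all 4 replicates. Their lowest ranks were 524, 501, 507 and 454 in replicates 1 to 4, so none fell outside the strongest 524 of any replicate. The core was in 5 of them, ACAAAGT in 3 (CG12206, slgA and BORCS5), and 8 held either sequence.

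**Figure D2:**
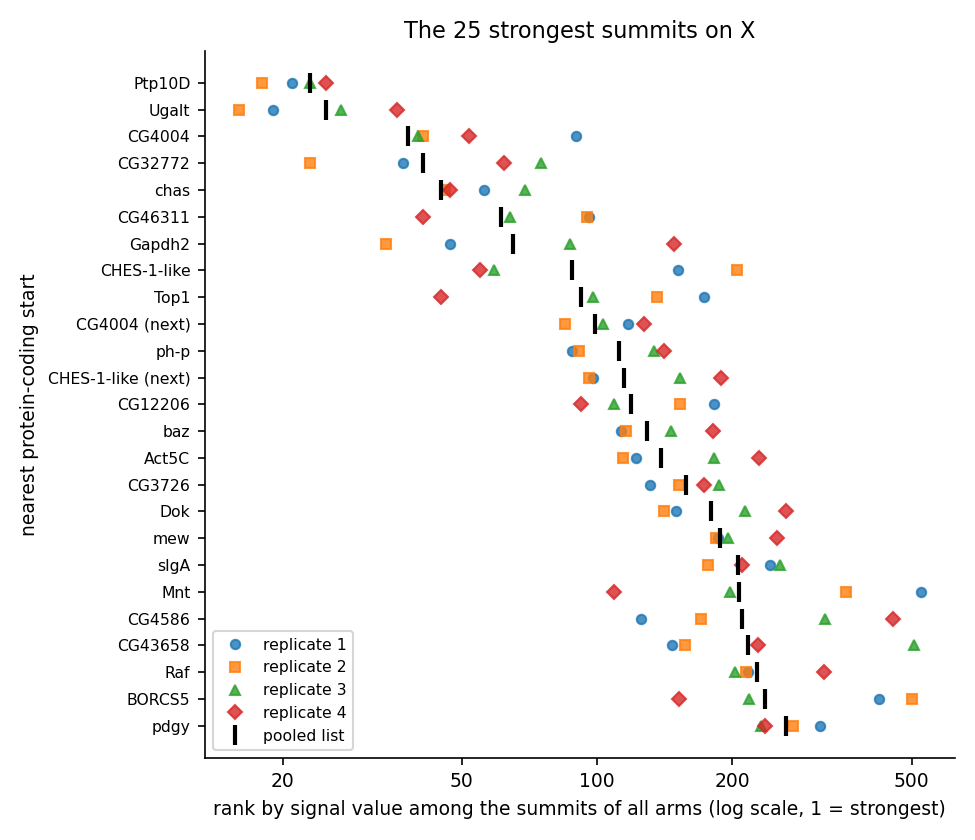
Rank by signal value among the summits of all arms (x axis, log scale, rank 1 the strongest) for the 25 strongest X summits (y axis, named by the nearest protein-coding start; "next" marks a further summit of the same gene) in the pooled list (bar) and the 4 replicates (symbols). The replicate ranks run from 16 at Ugalt to 524 at Mnt.

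X summits were intronic more often and intergenic less often than the others. Introns held 757 of the X summits (49.4%, 95% interval 46.9 to 52.0) and 40.6% of the others (39.5 to 41.7), against 42.1% of all reproducible summits. Intergenic sequence held 145 X summits (9.47%, 8.05 to 11.0) and 19.6% of the others (18.7 to 20.5), against 17.9% of all. Intergenic sequence makes up 22.6% of X and 28.2% of the other arms, and introns make up 43.3% and 38.6%. Relative to these shares of sequence, intergenic summits were at 0.420 on X and 0.695 elsewhere, and intronic ones at 1.14 on X and 1.05 elsewhere. The composition of the sequence thus differed in the same direction as the summits, and its part in the result was not tested.

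The same difference was present in each replicate's strongest 10000 summits. In replicates 1 to 4, 8.32%, 8.78%, 10.1% and 9.14% of the X summits were intergenic, against 17.7%, 17.7%, 20.9% and 20.02% of the others. The X values lay below all values off X, with a mean difference of −9.98 percentage points (SD 0.991, n = 4, exact sign-flip permutation test, p = 0.125). Introns held 47.2%, 47.4%, 51.3% and 48.7% of the X summits in replicates 1 to 4, against 39.5%, 38.3%, 40.6% and 40.4% of the others, a mean difference of 8.94 points (SD 1.32, higher in 4 of 4, exact sign-flip permutation test, p = 0.125). Among the strongest 25 and 100 summits of each side the contrast was wider. None of the 25 strongest X summits was intergenic, and 14 of the 25 strongest off X were. The corresponding counts were 4 and 22 for the strongest 100, and 32 and 83 for the strongest 500 of each. The last pair, 6.4% and 16.6%, differed about as much as the shares in the full list. The 25 strongest on X reached down to overall rank 263, so the sets were not matched for signal. The strongest intergenic X summit ranked 329 overall and lay 507 bp upstream of CG17896 (signal 2365).

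Promoters, defined here as the 500 bp on each side of a transcript start, held 565 X summits (36.9%, 34.5 to 39.4) and 36.4% of the others (35.3 to 37.5), against 36.5% of all. They cover 12.6% of X and 13.8% of the other arms. The replicates differed in direction, with X minus the others at 0.277, −1.87, −0.929 and 1.30 points in replicates 1 to 4 and a mean of −0.306 ± 1.39 (SD, exact sign-flip permutation test, p = 0.75). Which of the sides was higher was therefore not determined. The 3′ untranslated regions held 27 X summits (1.76%) and 0.800% of the others, coding exons 3 (0.196%) and 0.420%, 5′ untranslated regions 17 (1.11%) and 1.02%, and other exons 17 (1.11%) and 1.17%. Coding exons make up 13.2% of X, so summits there were rare. The median distance from a summit to the nearest protein-coding start was 1292 bp on X and 1771 bp elsewhere, and 12.2% and 16.6% of summits lay over 10000 bp from one.

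**Figure D3:**
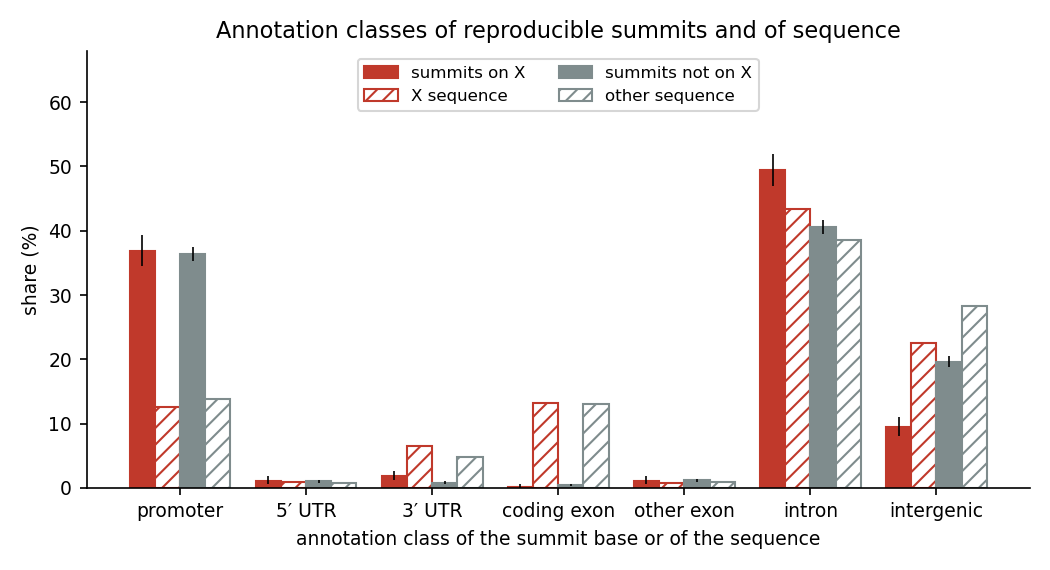
Share (y axis, %) of reproducible summits on X, of X sequence, of summits not on X and of the remaining sequence in 7 annotation classes (x axis), with exact 95% binomial intervals on the summits. Intergenic summits are at 9.47% on X and 19.6% elsewhere, and intronic summits at 49.4% and 40.6%.

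Reproducible summits were slightly sparser on X. X held 65.0 per Mb, against 69.7 over the arms 2L, 2R, 3L and 3R together, where single arms ranged from 66.8 on 3R to 74.7 on 3L. X also had fewer protein-coding genes per Mb, 93.3 against 107. In the strongest 10000 summits of replicates 1 to 4 the density was 70.4, 72.6, 67.7 and 69.2 per Mb on X, against 75.9, 75.7, 76.8 and 76.5 on the 4 autosomal arms. X was lower in 4 of 4 replicates, with a mean ratio of 0.918 ± 0.0332 (SD, exact sign-flip permutation test, p = 0.125). Counting only 500 kb windows that held a pooled summit, which leaves out empty stretches of the arms, the mean ratio was 0.847 ± 0.0306 (SD). With all 30000 summits of a list the ratio was 1.00, 1.03, 0.959 and 0.972 in replicates 1 to 4 (mean 0.992 ± 0.0336, exact sign-flip permutation test, p = 0.75), a setting added after seeing the data, and 1.05 in the pooled list. The direction thus differed between lists once weaker summits were counted. The pooled list of 30000 held 5530 X summits, of which 27.7% were in the reproducible list, against 31.1% on the 4 autosomal arms. The reproducible list was the strongest 9154 summits of the pooled list, so these shares restate the ranking by signal and do not measure reproducibility separately.

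The median distance to the next summit was 4070 bp on X and 3546 bp on the 4 autosomal arms. In replicates 1 to 4 it was 3199, 3757, 4303 and 3832 bp on X and 3056, 3307, 3379 and 3353 bp on the autosomal arms. The ratio averaged 1.15 ± 0.0933 (SD, higher in 4 of 4 replicates, exact sign-flip permutation test, p = 0.125), from 1.05 in replicate 1 to 1.27 in replicate 3. Close pairs were about as frequent, with 19.6% of X gaps and 20.1% of autosomal gaps under 1000 bp. Secondary summits, which follow a stronger summit by under 260 bp in the direction of rising coordinates, made up 6.60% of the X summits and 8.05% of the autosomal ones.

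Along X, the 23 full 1 Mb windows held between 4 and 107 summits, with a median of 68 and an SD of 26.6. The 108 autosomal windows ranged more widely, from 0 to 156, with a median of 74.5. The densest X windows were those from 17000001 to 18000000 (107 summits), from 6000001 to 7000000 (106) and from 3000001 to 4000000 (100). In the densest, the strongest summits were those of chas, baz, CG43658 and CG8568 (1684, intergenic). The lowest window was the last full one, from 22000001 to 23000000, with 4 summits and 46 protein-coding genes. The longest stretch of X without a reproducible summit, 847796 bp from 21631722 to 22479518, held 28 protein-coding genes, and the next longest, 349870 bp, followed it directly.

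**Figure D4:**
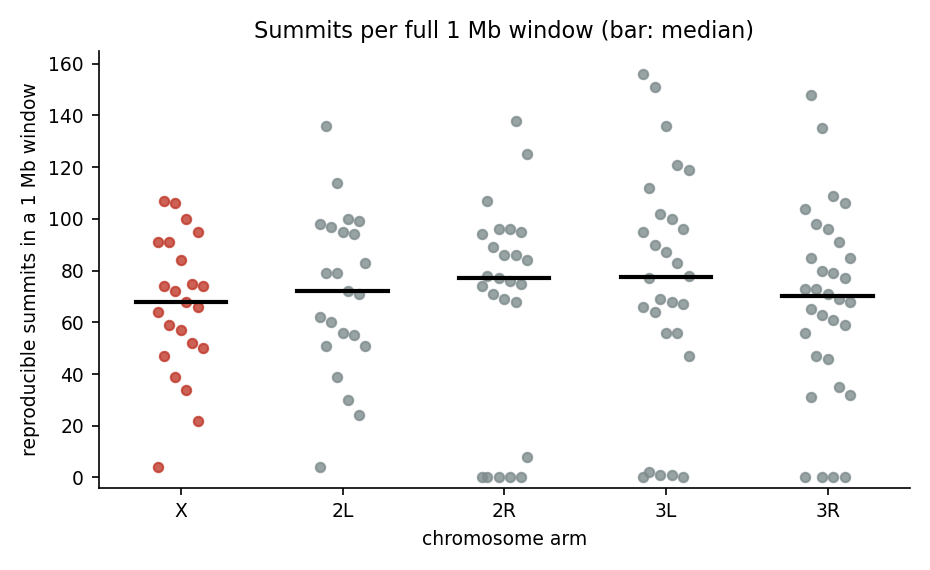
Number of reproducible summits (y axis) in each full 1 Mb window of X and of 4 autosomal arms (x axis), with the median of each arm as a bar. X windows run from 4 to 107 with a median of 68, and the highest autosomal window holds 156.

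Several X genes held many summits between their ends, a count that includes summits in genes nested within them. The spans of w and rst lie within that of kirre, and the strongest summit in CG1677 also lay within Dok. The most were in kirre, an immunoglobulin-family gene of myoblast fusion, with 27 summits in 394149 bp, followed by CG1677 with 21 in 124709 bp and CG43658 with 20 in 105012 bp. Mnt held 20 in only 29872 bp, of which 5 were secondary. Raf and Tlk, a Tousled-like kinase gene, held 17 each, and CG32816 and Smr, a nuclear receptor corepressor gene, held 16 each. The density in kirre, 0.0685 summits per kb, was near the mean of X, 65.0 per Mb. The other genes named here ranged from 0.104 per kb in CG32816 to 0.670 per kb in Mnt. Of the 441 X protein-coding genes with a summit in the gene, 69 held at least 5 and 21 held at least 10.

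Replicate support for X summits was not shifted in a single direction. In replicate 1, which did not enter the reproducible list, 1166 X summits (76.2%, 73.9 to 78.3) were held, that is, matched within 100 bp by 1 of the strongest 10000 summits, and 73.5% of the others were (72.5 to 74.5), against 74% of all. The shares in replicates 2, 3 and 4 were 83.9%, 84.8% and 82.9% on X, against 81.0%, 86.0% and 83.2% off X. X was higher in replicates 1 and 2 and lower in replicates 3 and 4, and the mean difference was 1.00 ± 2.07 percentage points (SD, exact sign-flip permutation test, p = 0.5). All 4 replicates held 839 X summits (54.8%) and 52.8% of the others, against 53.2% of all. Support declined with signal on both sides. In replicate 1 it was 96.5% in the strongest quintile of the list and 47.2% in the weakest for X summits, and 97.5% and 41.6% for the others.

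No replicate held 8 of the X summits (0.523%) and 49 of the others (0.643%). The strongest of the 8 on X was intronic, 773 bp upstream of a start of unc-119 (signal 631). The other 7, near RhoU, Myc, orion, Mnr, kek5, PIG-K and Hsc70-3, had signals from 257 to 357. These genes were named after their values were seen. Across X summits found anywhere in a replicate's 30000, the Spearman correlation of its signal with the pooled signal was 0.799, 0.878, 0.899 and 0.873 in replicates 1 to 4, and 0.812, 0.876, 0.894 and 0.872 across the others. These are descriptions across summits, and replicates 2, 3 and 4 are part of the pool.

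Within 50 bp of the summit, the core ACAATGT was present on either strand at 107 X summits (6.99%, 5.76 to 8.38) and at 8.28% of the others (7.67 to 8.92), against 8.06% of all. Flanking windows of 101 bp, centred 500 bp to a side of the summit, held it in 1.50% on X and 1.51% elsewhere on the side with the higher share, and non-overlapping windows over whole arms in 1.55% and 1.63%. The core was thus enriched at X summits relative to both kinds of window. In each replicate's strongest 10000 summits the core share was 5.67%, 5.56%, 7.47% and 7.73% on X in replicates 1 to 4, against 5.70%, 6.69%, 7.88% and 8.15% off X. X was lower in 4 of 4 replicates, with X minus the others at −0.029 points in replicate 1 and −1.14 in replicate 2, and a mean difference of −0.498 ± 0.462 (SD, exact sign-flip permutation test, p = 0.125). The variant ACAAAGT was at 85 X summits (5.55%) and 7.10% of the others, against 6.84% of all, and 5 X summits held both.

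The core went with higher signals both on X and off X. Its share was 10.5% in the strongest quintile of the X summits (32 of 306, 7.26 to 14.4) and 9.15%, 6.86%, 4.58% and 3.91% in the following quintiles. The median signal of X summits with the core was 589, and that of the other X summits 444. Off X the medians were 629 with the core and 458 without it. Promoter summits on X held it in 4.25% and those elsewhere in 5.16%, and summits outside promoters in 8.59% on X and 10.1% elsewhere. The core was thus less frequent in promoters on both sides. All 4 replicates held 68 of the 107 X summits with the core.

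Simple repeats were more frequent at X summits than elsewhere, and more frequent in X sequence as a whole. GAGAGAGA, on either strand, was at 43 X summits (2.81%, 2.04 to 3.76) and 1.55% of the others (1.28 to 1.85), against 1.76% of all. Flanking windows held it in 1.70% on X and 1.02% elsewhere, and windows over whole arms in 0.783% and 0.519%. Relative to whole arms, the share at summits was 3.59 times as high on X and 2.98 times as high elsewhere. In replicates 1 to 4 it was at 3.02%, 2.57%, 2.20% and 2.82% of X summits, against 2.31%, 1.95%, 1.30% and 1.35% of the others, a mean difference of 0.925 points (SD 0.383, higher in 4 of 4, exact sign-flip permutation test, p = 0.125). The strongest X summit with it was the one at CHES-1-like that also held the core.

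CACACACA was at 77 X summits (5.03%, 3.99 to 6.25) and 3.31% of the others (2.92 to 3.73), against 3.59% of all. Its share in flanking windows was 4.77% on X and 2.94% elsewhere, close to that at the summits. Relative to whole arms the share at summits was 1.67 times as high on X and 1.74 times as high elsewhere, so X summits did not exceed the others by this measure. The replicates had it at 6.51%, 4.68%, 3.95% and 4.23% of X summits, against 3.70%, 3.27%, 2.62% and 3.21% of the others, a mean difference of 1.64 points (SD 0.796, higher in 4 of 4, exact sign-flip permutation test, p = 0.125). TATCGATA, a promoter element, was at 14 X summits (0.914%) and 0.748% of the others, against 0.776% of all. Among promoter summits alone it was at 2.30% on X and 1.88% elsewhere. Windows centred on transcript starts held it in 5.02% on X and 3.51% elsewhere.

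**Figure D5:**
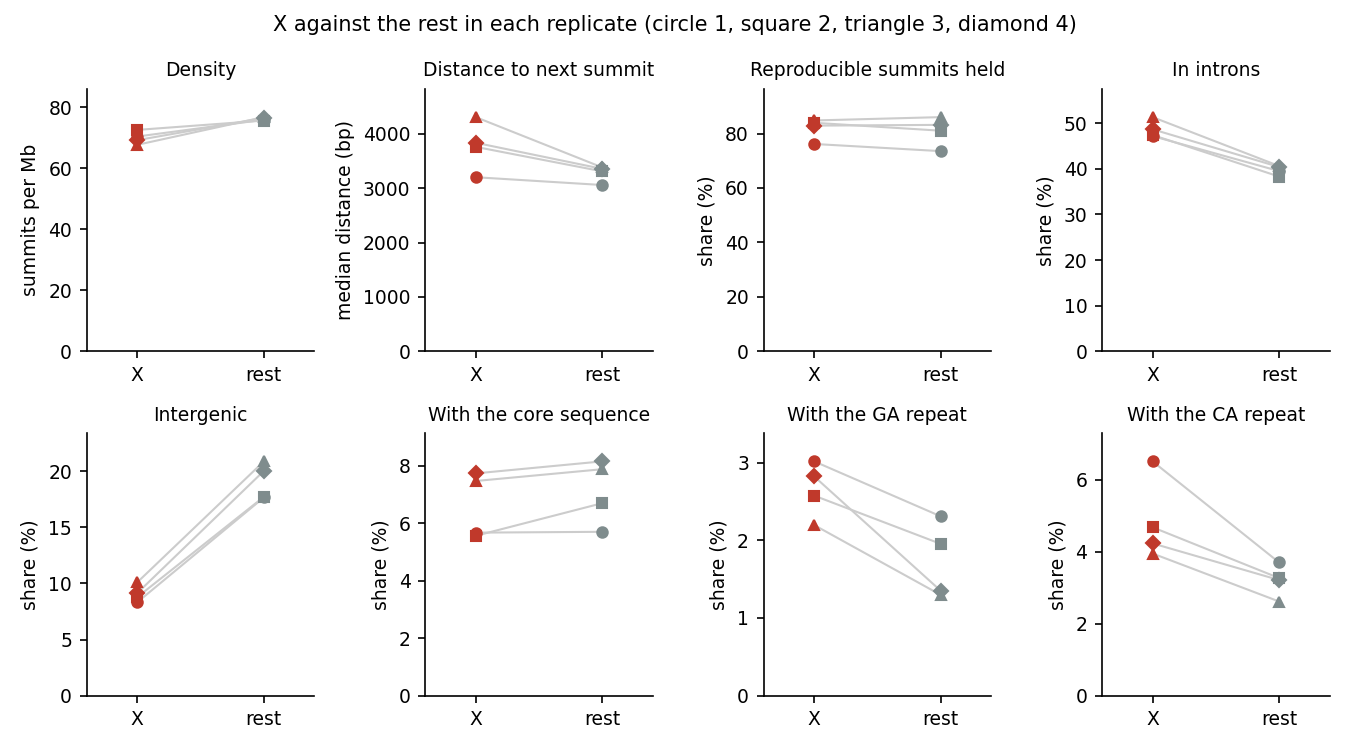
Values on X (left of each panel) and in the rest (right) for each replicate's strongest 10000 summits (symbols joined by lines) in 8 measures, with units on each y axis. The rest is the arms 2L, 2R, 3L and 3R for density and distance, and all summits off X otherwise. Intergenic shares lie between 8.32% and 10.1% on X and between 17.7% and 20.9% elsewhere, while the lines for reproducible summits held run in both directions.

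Genes with a reproducible summit no more than 1000 bp from a transcript start were called bound, and 619 of 2196 protein-coding genes on X were bound (28.2%, 26.3 to 30.1). Off X 3035 of 11749 were bound (25.8%, 25.04 to 26.6), against 26.2% of all 13945. In the strongest 10000 summits of replicates 1 to 4, 31.2%, 32.3%, 27.2% and 29.3% of X genes were bound, against 29.4%, 31.1%, 27.7% and 27.5% of the others. X was higher in 3 of 4 replicates, and the mean difference of 1.10 points was about as large as its SD of 1.06 (exact sign-flip permutation test, p = 0.25). It was −0.923 points with the strongest 5000 summits of each replicate and 5.35 with the strongest 20000.

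None of the 3 X-linked yolk protein genes, Yp1, Yp2 and Yp3, was bound by a reproducible summit. The nearest was 13915 bp from Yp1, 15131 bp from Yp2 and 2972 bp from Yp3. The full pooled list did hold a weaker summit in the stretch between the divergent genes Yp1 and Yp2, where an enhancer active in the female fat body with Doublesex sites is known. It lay at X 10053553, 258 bp from the start of Yp1 and 917 bp from that of Yp2, with a signal of 204 at rank 11421, beyond the last reproducible rank of 9154. It was found at ranks 16909, 16881 and 12425 of replicates 2, 3 and 4, and not within 100 bp in the 30000 summits of replicate 1. Its window is shown because it held both the core and its variant, and it was chosen after its value was seen.
Yp1 and Yp2 (chrX:10053503-10053603): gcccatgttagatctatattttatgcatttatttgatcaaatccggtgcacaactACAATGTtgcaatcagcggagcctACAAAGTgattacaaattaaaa
Such ranks lie among the weaker summits of lists whose length is fixed. At Yp3 the pooled list held a summit 414 bp from the start at rank 16867, with counterparts within 1000 bp in replicates 3 and 4.

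The dosage compensation genes mof, roX1 and roX2 also had no reproducible summit at a start. The nearest were 2930, 4530 and 2304 bp away. The pooled list held weaker summits 65 bp from the start of mof (rank 21570), 91 bp from that of roX1 (24152) and 8 bp from that of roX2 (13166). That at roX2 had counterparts within 1000 bp in all 4 replicates, at ranks 17944, 8427, 11854 and 19245. Of the 8 sex determination genes, Sxl, the master switch of the pathway, was bound (12.5%, against 26.2% of all genes), 346 bp downstream of a start (710), with ranks of 1473, 2282, 4737 and 3141 in replicates 1 to 4. The signal elements sc, sisA, upd1 and run, and snf, ovo and otu, were not bound. The nearest summits to ovo and otu were 1559 and 2209 bp away, with signals of 990 and 645.

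Ecdysone and steroid genes were the list with the largest share bound, 5 of 6, against 26.2% of all genes and 28.2% of X genes. The summit at usp, which encodes the partner of the ecdysone receptor, was the strongest (2224, 130 bp downstream of a start) and ranked 518, 318, 622 and 271 in replicates 1 to 4. It lies at the shared start region of Actn, the muscle alpha-actinin gene, so the summit cannot be assigned to either gene. The early ecdysone gene br (479) and Smr (446) were bound with support in all 4 replicates. The ecdysone synthesis gene phtm (336) and the nuclear receptor gene Hr4 (256) had lower signals, and were held among the strongest 10000 of 2 replicates and 1 replicate. Further down the lists both were found in all 4, at ranks 7042, 16381, 13276 and 5938 for phtm and 11048, 6306, 13423 and 14280 for Hr4. Cyp18a1, which encodes an ecdysone-inactivating enzyme, had its nearest summit 6750 bp away. None of the strongest summits within 1000 bp of a start at the 5 bound genes held the core.

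Patterning and signalling genes were bound in 16 of 33 cases (48.5%, against 26.2% of all genes). The strongest were at sgg, the GSK3 kinase gene (2574, ranks 328, 296, 344 and 286), and at the homeobox genes B-H1 (1044) and oc (858) and the zinc finger gene disco (801, with the core). The 16 included 2 with the core, disco and cv, the second named after its value was seen. Of 14 neuronal genes, 3 were bound (21.4%, near the 26.2% of all genes), namely elav, an RNA-binding protein gene used as a marker of neurons (2344, ranks 365, 242, 418 and 485), the phosphodiesterase gene dnc (1351) and the adhesion gene Nrg (280). Of 8 muscle genes 2 were bound (25%, near the 26.2% of all genes), Actn (2224, the summit shared with usp) and kirre (324), and up, wupA, flw, if, mys and rst were not.

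Insulin and growth genes were bound in 4 of 7 cases (57.1%, against 26.2% of all genes), all with signals under the X median of 452, namely S6KL (380), Ilp6 (304), sd (263) and Myc (262), and Ilp7, AMPKalpha and S6kII were not. None of these 4 had support in all replicates. Ribosomal protein genes were bound in 8 of 14 cases (57.1%, against 26.2%), with a median signal of 315 and RpS28b (995), RpS19a (448), RpS5a (418) and RpL17 (327) the strongest. The summits given for RpS28b and RpS5a lay 788 and 832 bp upstream of their starts. The first was 85 bp from a start of another protein-coding gene and the second lay within Chchd2, so neither can be assigned to 1 gene. Closer summits lay 1 bp from a start of RpS28b and 44 bp from one of RpS5a. Pigment and eye colour genes were bound in 2 of 10 cases (20%, against 26.2%), cm (756) and the T-box gene bi (520), and y, w, v, t, ras, g, car and rb were not. A summit of 2061 lay 3249 bp from g. None of the 4 JAK-STAT genes upd1, upd2, upd3 and hop was bound, none of the 12 eggshell and female germline genes and none of the 25 odorant, gustatory and ionotropic receptor genes, where 26.2% of all genes were. The strongest summit nearest to an eggshell gene was 3959 bp from Cp7Fa, with the core and a signal of 2436, and the same summit was nearest to Cp7Fb, Cp7Fc and Cp36. With 3 to 33 genes a list, these shares are descriptions and were not tested. A gene with several transcript starts has more chances to be called bound, and the lists were not matched for gene length or number of starts.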

How the data were processed

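ChIP-seq of dsx-GFP prepupae was analysed from 4 replicate peak lists, a pooled list and a reproducible list, with coordinates on dm6 (deposited text notes). Those notes give replicates 2, 3 and 4 as the inputs of the pooled list and of the reproducible list, which used the irreproducible discovery rate, and do not name replicate 1 there. For the aligner, caller and thresholds, the information is not given in the sources used here. The deposited signal score is the authors' own and is not normalized between lists. The deposited −log10 q-value was at its ceiling for all X summits of the reproducible list, though not for all summits of the longer lists, and was not used. The summit position comes from the deposited offset and is printed 1-based. Depth is unknown, and control samples and signal tracks were not used here.

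Gene models were those of Ensembl release 115 without transposable elements, and sequence was the RefSeq copy. Classes were assigned with promoter first, then untranslated regions (5′, 3′), exons (coding, other), introns and last intergenic sequence. Replicate values used each list's strongest 10000 summits, except the share of X in the strongest 500. X and the rest were compared by an exact two-sided sign-flip permutation test over replicates, on log2 ratios where the measure is a ratio, with Benjamini-Hochberg adjustment over 12 measures, and percent shares of summits have exact Clopper-Pearson 95% intervals. The intron, intergenic and top-rank measures were added after seeing the data. The functions were tested on simulated data. Named genes are those nearest the 25 strongest X summits, all genes of lists of up to 10, at most 4 of longer lists and of the densest window. The members and lists were chosen with earlier results of these data known. Python 3.11.15, numpy 2.4.6, pandas 2.3.3, scipy 1.17.1 and matplotlib 3.10.9 were used.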

Additional observations from a re-analysis of the deposited data

How the results depend on the processing

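Of 91 alternatives over 12 measures, 84 kept their direction, and no p could pass 0.05 under any of them. Those that reversed concerned replicate support, promoters and bound genes. The difference in support was −1.33 points with the strongest 5000 summits and −0.446 within 200 bp. The difference in promoters was 1.11 with the strongest 20000, 1.24 within 1000 bp and 1.36 with protein-coding starts only, and it was −2.87 within 200 bp and −1.19 with the strongest 5000. Leaving out each replicate gave −0.841 to 0.216, the highest without replicate 2. The difference in bound genes was −0.923 points with the strongest 5000, 5.35 with the strongest 20000, 0.045 within 500 bp and 0.673 within 2000 bp. The cause was not tested. Leaving out each replicate gave 0.372 to 1.75 for support, 0.856 to 1.61 for bound genes, 0.905 to 0.931 for density, 0.969 to 0.98 for signal, 1.11 to 1.18 for distance, −0.654 to −0.286 for ACAATGT, 0.742 to 1.03 for GAGAGAGA, 1.26 to 1.85 for CACACACA, 8.34 to 9.36 for introns, −10.3 to −9.69 for intergenic and −5.39 to −4.75 for the top 500. The density ratio was 0.847 over 500 kb windows with a pooled summit, 0.885 with the strongest 5000, 0.967 with the strongest 20000 and 0.992 with all 30000, the last added after seeing the data. The top 100 and 1000 gave −8.34 and −3.31. X and the rest were paired within each replicate in every test, and with 1 group there were no groups to pair. Dixon's ratio marked 0 of 25 measures as holding an outlying replicate.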
